A study of Bos taurus with 8 samples.

Results

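The genes described here mark and run T cells and natural killer (NK) cells, the lymphocytes that carry antigen receptors or kill other cells on contact. They were chosen by symbol: 39 named genes of the 33132 in the deposited count table, and all 39 were found in it. RNA was sequenced from rumen, the forestomach in which cattle ferment their feed. The samples came from 4 male calves just after birth and from 4 grown steers, which are castrated males. All 8 animals were angus crosses, no treatment is named for either group, and each animal gave 1 library. The calves and the steers differ in age and in castration together, so their effects cannot be told apart. The sources used here give no exact age, diet or layer of the rumen wall.

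A T cell reads antigen through a receptor whose signal passes through the CD3 chains and CD247 to the kinases LCK and ZAP70 and the adaptor LAT. CD4 and CD8 are the coreceptors of helper and killer T cells, and costimulatory and inhibitory receptors set how strongly the cell responds. Killer T cells and NK cells carry perforin and granzymes in granules, and cattle have many T cells with the gamma delta receptor, often found in epithelia.

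Library totals ran from 42322022 to 54449684 counts. Levels are given as CPM, the counts scaled to a common library size after TMM, a correction for differences in RNA composition. The smallest amount taken as measurable, 3 counts in a library, was 0.0502 to 0.0835 CPM. Each mate of a pair adds a count, so 2 or 4 counts are mostly 1 or 2 pairs. The tissue label was checked on markers of rumen wall: the basal keratinocyte gene KRT5 averaged 3161 CPM in calves and 3491 in steers, TP63 averaged 114 and 144, and the smooth muscle myosin MYH11 averaged 543 and 2126. Groups were compared with edgeR's quasi-likelihood test, with Benjamini-Hochberg adjustment over the 16326 genes that passed a filter on low counts. A gene is called changed at an adjusted p under 0.05, and a log2 change is steer minus calf, with its standard error (SE).

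Of the 39 lymphocyte genes, 27 passed the filter, and 16 of these rose and 2 fell from calf to steer. The genes that rose included the receptor chain CD3E, the surface receptors CD2, CD4 and ICOS, and the interleukin 7 receptor IL7R. The T cell kinase LCK and the transcription factor IKZF2 fell. The killing genes PRF1, GZMA and GZMB stood at or near the limit of measurement in both groups. Over all 16326 tested genes, 7.7% were called higher and 9.16% lower, with a median log2 change of 0.04, against a median of 2.24 over the 27. That contrast is partly built in: 11 of the 27 reached the filter's 0.212 CPM in all 4 steers but not in all 4 calves, and 10 of those 11 were called higher. Of the other 16 tested genes, 6 were called higher and 2 lower. In these bulk samples, fewer cells of a type and less RNA per cell cannot be told apart.

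**Figure D1:**
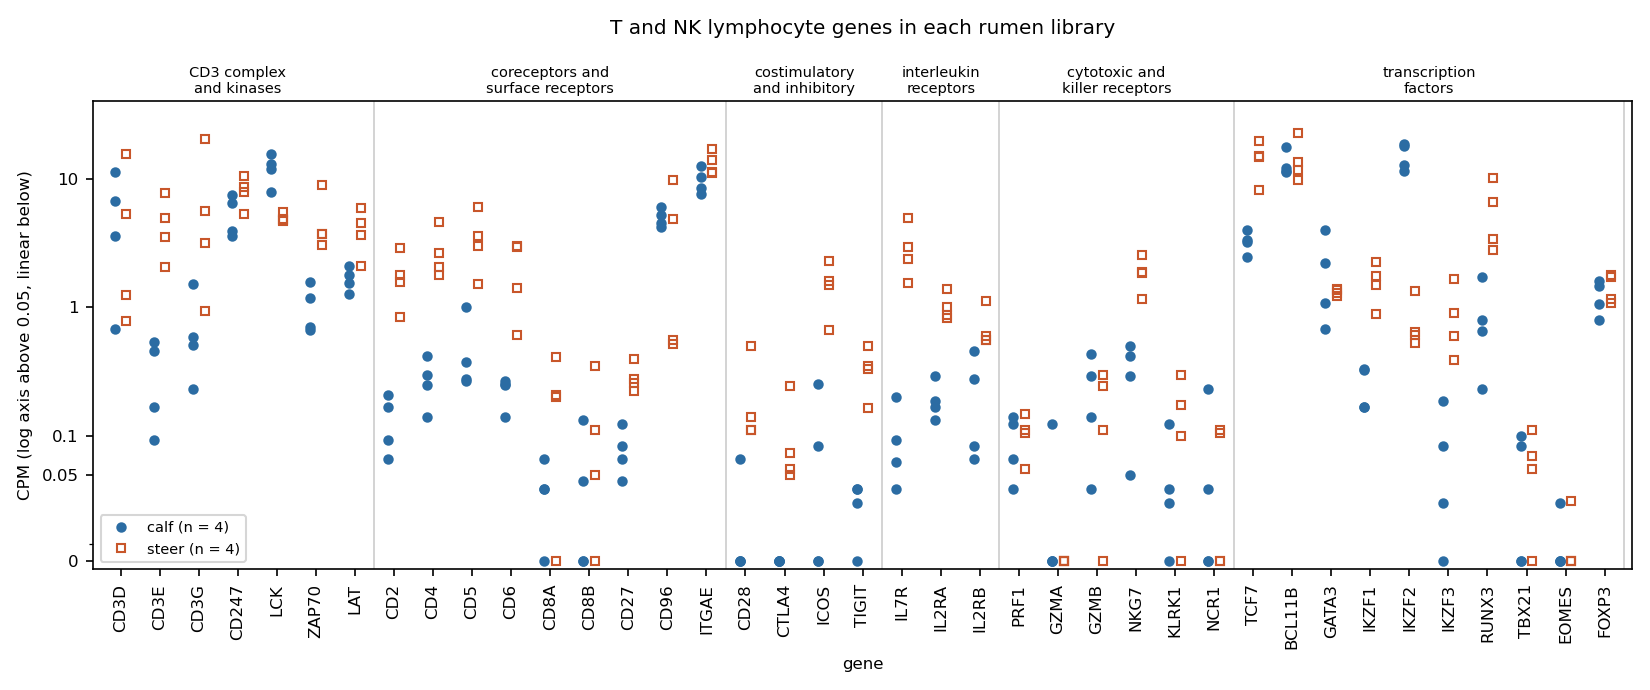
CPM of each of the 39 T and NK lymphocyte genes in every library, on an axis that is logarithmic above 0.05 CPM and linear below it, with 4 calves as filled circles and 4 steers as open squares. IL7R, CD2, CD4 and TCF7 show steer points wholly above calf points, LCK and IKZF2 show the reverse, and the cytotoxic genes other than NKG7 lie near the bottom of the axis in both groups.

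The receptor complex and its first kinases did not move as a unit. Of 7 genes, all tested, 4 rose (CD3E, CD3G, ZAP70, LAT), 1 fell (LCK) and 2 were not called (CD3D, CD247), with a median log2 change of 1.27. CD3E, CD3D and CD3G encode the 3 invariant chains that sit beside the antigen receptor, and they lie side by side on chromosome 15. CD3E spans 29004554 to 29015196 on the plus strand, CD3D 29019453 to 29023621 on the minus strand, and CD3G 29025582 to 29037075 on the plus strand. CD3E counts were 4, 10, 22 and 26 in calves 1 to 4 and 308, 74, 190 and 284 in steers 1 to 4. No steer overlapped a calf. CD3E rose from 0.317 ± 0.220 to 4.57 ± 2.40 CPM (mean ± SD, n = 4 each), a log2 change of 3.84 ± 0.64 (SE) with an edgeR adjusted p of 0.00389. CD3G counts were 22, 14, 72 and 28 in calves and 226, 34, 171 and 1170 in steers. Steer 4 stood far above the other steers, and steer 2 lay within the range of the calves. CD3G rose from 0.712 ± 0.557 to 7.57 ± 8.84 CPM, a log2 change of 3.41 ± 0.92 with an edgeR adjusted p of 0.0314. That call ended without calf 1, calf 2, calf 4 or steer 4 (adjusted p 0.0876, 0.0706, 0.0802 and 0.0621) and under limma-voom (0.0834), the log2 change being 2.20 without steer 4 and 4.10 without calf 3.

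CD3D differed from its neighbours. Its counts were 289, 41, 536 and 171 in calves and 214, 28, 67 and 882 in steers, so the 4 calves already carried it and the groups overlapped throughout. CD3D averaged 5.57 ± 4.54 CPM in calves and 5.71 ± 6.82 in steers, a log2 change of 0.04 ± 0.96 with an edgeR adjusted p of 0.982. It ran from -1.18 without steer 4 to 0.64 without calf 3 and was 1.424 with the level of smooth muscle as a covariate (adjusted p 0.263), so the test leaves room for a change of either sign. CD3D lies 1961 bases from CD3G on the opposite strand, and the counting ignored strand. The counted span includes introns, so a level per kilobase also depends on their length and is not a level of mature transcript. Per kilobase of counted span, the mean calf level was 1.34 CPM for CD3D, against 0.0298 for CD3E and 0.0619 for CD3G. In steers the levels per kilobase were 1.37, 0.429 and 0.659 CPM, in the same order of genes. CD247, the zeta chain that carries most of the complex's signalling motifs, counted 280, 236, 170 and 356 in calves and 422, 285, 466 and 304 in steers. The groups overlapped, at 5.37 ± 1.90 and 8.12 ± 2.16 CPM, and its log2 change of 0.60 ± 0.33 was not called (edgeR adjusted p = 0.248).

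LCK, the kinase that phosphorylates the CD3 chains, was the member of this group that fell. Its counts were 668, 474, 614 and 566 in calves and 222, 170, 256 and 278 in steers, with every calf above every steer. The level was 12.1 ± 3.17 CPM in calves and 4.98 ± 0.384 in steers, for a log2 change of -1.28 ± 0.25 (edgeR adjusted p = 0.00844), and the call held in all 20 alternative analyses. LCK lies on chromosome 2 at 121262592 to 121283547 on the minus strand. Its neighbour FAM167B, 1817 bases away on the same strand and picked after its values were seen, counted 438, 284, 374 and 802 in calves and 20, 24, 20 and 30 in steers. The neighbour on the other side, HDAC1, averaged 160.8 CPM in calves and 202.5 in steers. The part of neighbouring transcription in the LCK counts was not tested.

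ZAP70, the kinase that docks on phosphorylated CD3 and CD247, moved the other way. Its counts were 30, 40, 56 and 76 in calves and 122, 134, 482 and 212 in steers. All 4 steers were above all 4 calves, with steer 3 well apart from the other steers. ZAP70 rose from 1.03 ± 0.438 to 4.87 ± 2.76 CPM, a log2 change of 2.23 ± 0.47 (edgeR adjusted p = 0.0111). LAT, the membrane scaffold that ZAP70 phosphorylates, counted 66, 126, 60 and 86 in calves and 236, 76, 196 and 260 in steers. In CPM steer 2 was only just above the highest calf, calf 2. LAT averaged 1.68 ± 0.361 CPM in calves and 4.06 ± 1.59 in steers, with a log2 change of 1.27 ± 0.37 (edgeR adjusted p = 0.0431). Its call was the least stable of the 18: leaving out calf 1, calf 2, calf 3, calf 4, steer 1, steer 3 or steer 4 ended it, with log2 changes of 1.04 to 1.40 and adjusted p of 0.0552 to 0.111. It also ended with library size scaling, without the filter, with limma-voom, and once smooth muscle level was a covariate (adjusted p 0.105, 0.051, 0.0534 and 0.0599).

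**Figure D2:**
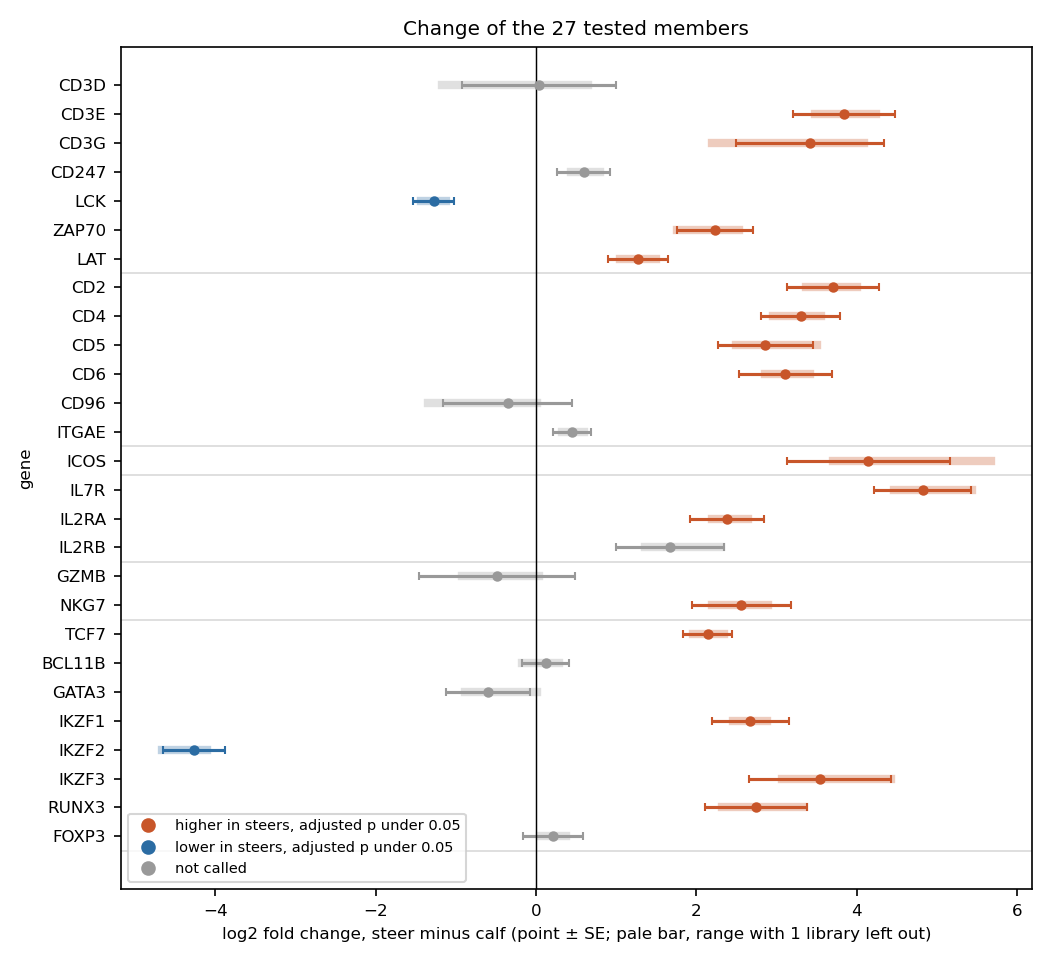
Log2 fold change, steer minus calf, of the 27 tested genes: points with ± SE bars are the edgeR estimates over 8 libraries, pale bars give the range with 1 library left out, and grey lines part the groups of genes. CD3E, CD4, IL7R and TCF7 stay well to the right of 0, LCK and IKZF2 well to the left, and CD3D has a range from -1.18 to 0.64.

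Surface receptors of T cells rose together where they could be tested, apart from CD96 and ITGAE. Of 9 coreceptors and accessory receptors, 4 rose (CD2, CD4, CD5, CD6), 2 were tested and not called, and 3 (CD8A, CD8B, CD27) were too low to test. CD4, the coreceptor of helper T cells, lies on chromosome 5 at 103631358 to 103654819. It counted 6, 18, 20 and 12 in calves and 184, 74, 96 and 152 in steers, with no overlap. CD4 rose from 0.278 ± 0.117 to 2.78 ± 1.27 CPM, a log2 change of 3.30 ± 0.49 (edgeR adjusted p = 0.00224). CD2, an adhesion receptor of T and NK cells on chromosome 3 at 26468505 to 26483060, counted 4, 4, 8 and 10 in calves and 116, 64, 45 and 90 in steers. The lowest steer was again above the highest calf. CD2 rose from 0.134 ± 0.0658 to 1.77 ± 0.853 CPM, a log2 change of 3.70 ± 0.57 (edgeR adjusted p = 0.0027).

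CD5 and CD6 are related scavenger-type receptors that dampen antigen receptor signals, and they lie near each other on chromosome 29. CD5 (37422928 to 37444470) counted 12, 16, 48 and 18 in calves and 240, 108, 82 and 204 in steers. Calf 3 stood above the other calves but below every steer. CD5 rose from 0.483 ± 0.354 to 3.53 ± 1.86 CPM, a log2 change of 2.86 ± 0.59 (edgeR adjusted p = 0.0101), or 3.51 without calf 3. CD6 (37311480 to 37357287) counted 6, 16, 12 and 12 in calves and 120, 22, 76 and 168 in steers. Steer 2 was the low steer, and the groups did not overlap in CPM. CD6 rose from 0.228 ± 0.0591 to 1.99 ± 1.18 CPM, a log2 change of 3.11 ± 0.58 (edgeR adjusted p = 0.00634).

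The killer T cell coreceptor CD8 was barely measured. CD8A, the chain shared by the CD8 homodimer and heterodimer, counted 0, 4, 2 and 2 in calves and 8, 0, 22 and 12 in steers. Steers 1, 3 and 4 were above all calves and steer 2 had none. CD8A averaged 0.0377 ± 0.0278 CPM in calves and 0.205 ± 0.167 in steers, and without the filter its edgeR adjusted p was 0.236. CD8B, the second chain of the heterodimer, counted 2, 8, 0 and 0 in calves and 2, 0, 6 and 20 in steers, with an edgeR adjusted p of 0.538 without the filter. A difference in CD8 was not detectable at this depth. Per kilobase of counted span, the mean steer level was 0.118 CPM for CD4, 0.029 for CD8A and 0.00649 for CD8B. Those spans, introns included, are 23462, 7074 and 19744 bases.

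CD27, a TNF family receptor lost on late effector cells, was too low for the filter at 2, 4, 4 and 6 counts in calves and 16, 8, 14 and 16 in steers. Every steer was above every calf, but without the filter its edgeR adjusted p was 0.132. ITGAE, the alpha chain that with beta 7 integrin holds lymphocytes to E-cadherin in epithelia, was the most abundant tested receptor of the group. Its counts were 365, 457, 493 and 596 in calves and 678, 503, 595 and 642 in steers, at 9.75 ± 2.14 and 13.3 ± 2.76 CPM. The highest calf passed the lowest steer, and the log2 change of 0.45 ± 0.24 was not called (edgeR adjusted p = 0.237). CD96, a receptor of T and NK cells for nectin family ligands, counted 196, 360, 248 and 202 in calves and 193, 20, 28 and 557 in steers. The calves were close together and the steers were spread on both sides of them, so the log2 change of -0.35 ± 0.80 was not called (edgeR adjusted p = 0.81).

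The 4 costimulatory and inhibitory receptors among the 39 genes (CD28, CTLA4, ICOS and TIGIT) were almost unread in calves. Inhibitory receptors outside the 39 varied. PDCD1 averaged 12.3 CPM in calves and 8.97 in steers, HAVCR2 1.93 and 3.12, and LAG3 0.728 and 0.958 (edgeR adjusted p 0.644, 0.21 and 0.658). BTLA had 0 counts in calves. CD28, CTLA4 and ICOS are relatives that lie in a row on chromosome 2, where CD28 and CTLA4 compete for the same ligands and ICOS acts on activated helper cells. ICOS (92144638 to 92169894) was the 1 receptor of the 4 that passed the filter, with 0, 0, 12 and 4 counts in calves and 60, 24, 86 and 130 in steers. All steers were above all calves. ICOS rose from 0.0840 ± 0.119 to 1.51 ± 0.661 CPM, a log2 change of 4.15 ± 1.02 (edgeR adjusted p = 0.0219). The call ended without calf 4 (log2 change 4.16, adjusted p 0.0582), and the log2 change was 5.67 without calf 3 and 5.21 in limma-voom. CD28 (91906337 to 91944271) counted 0, 4, 0 and 0 in calves and 20, 4, 6 and 8 in steers. In read pairs that is 2 against 19, a ratio of 10.1 with an exact 95% interval of 2.43 to 89.3 that covers counting error only, and the edgeR adjusted p without the filter was 0.119. All calf counts were in calf 2, without which CD28 was at least 3.31-fold higher in steers with 3 counts in each remaining calf library as the floor, and the ratio was 6.08 without steer 1.

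CTLA4 (92070589 to 92077263), the inhibitory partner of CD28, had no count in any calf and 2, 2, 4 and 14 in steers. Steer 4 held most of the steer counts. The steer mean was 0.106 CPM, and 0.0601 CPM without steer 4, against 0.0615 CPM for a floor of 3 counts in each calf library, so the rise above that floor rested on 1 steer. Its adjusted p without the filter was 0.0595 in edgeR and 0.0444 in DESeq2. TIGIT, an inhibitory receptor of T and NK cells that shares ligands with CD96, counted 0, 2, 2 and 2 in calves and 20, 6, 18 and 20 in steers. Each steer was above each calf, at 3 against 32 read pairs and a ratio of 11.3 (exact 95% interval 3.54 to 57.8, counting error only). TIGIT missed the filter, and without it the log2 change was 3.41 with an edgeR adjusted p of 0.0308.

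The interleukin receptors gave the highest rise among the 27 tested genes. IL7R, the receptor chain by which naive and memory T cells and innate lymphoid cells receive the survival signal of interleukin 7, lies on chromosome 20 at 38298533 to 38338653. It counted 4, 12, 3 and 2 in calves and 198, 56, 128 and 168 in steers, with a wide gap between the groups. IL7R rose from 0.0997 ± 0.0706 to 2.96 ± 1.44 CPM, a log2 change of 4.82 ± 0.61 (edgeR adjusted p = 0.00101), or 5.44 without calf 2. IL2RA, the high-affinity interleukin 2 chain of activated and regulatory T cells (chromosome 13, 17455295 to 17500749), counted 8, 8, 14 and 8 in calves and 40, 30, 47 and 80 in steers. There was no overlap, and IL2RA rose from 0.196 ± 0.0695 to 1.03 ± 0.259 CPM, a log2 change of 2.39 ± 0.46 (edgeR adjusted p = 0.00764). IL2RB, the signalling chain that NK cells also use for interleukin 15, counted 12, 4, 22 and 4 in calves and 24, 20, 30 and 64 in steers. Each steer was above each calf in CPM, yet the log2 change of 1.67 ± 0.67 was not called (edgeR adjusted p = 0.118).

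The genes of killing were near the limit of measurement in both groups, NKG7 apart. Of 6 genes, 1 rose, 1 was tested and not called, and 4 were too low to test. PRF1, which encodes the pore-forming perforin, counted 6, 4, 2 and 6 in calves and 6, 2, 6 and 6 in steers (0.0936 ± 0.0466 and 0.106 ± 0.0387 CPM, edgeR adjusted p 0.916 without the filter). GZMA, a granule protease, had 0, 0, 0 and 6 counts in calves and none in any steer, too few for a fold. GZMB, the protease that triggers apoptosis in target cells, counted 6, 26, 2 and 14 in calves and 12, 4, 0 and 14 in steers. The groups overlapped over their whole range, and the log2 change of -0.49 ± 0.97 was not called (edgeR adjusted p = 0.78). Granzymes form a multigene family, and reads of near-identical copies can be split or lost.

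The NK receptors were as low. KLRK1, which encodes the activating receptor NKG2D, counted 0, 2, 2 and 6 in calves and 4, 0, 16 and 10 in steers. NCR1, a receptor largely restricted to NK and related cells, counted 10, 0, 2 and 0 in calves and 0, 0, 6 and 6 in steers. Their edgeR adjusted p without the filter were 0.46 and 0.947, and a difference in either was not detectable at this depth. NKG7, a membrane protein of cytotoxic granules, was the exception. It lies on chromosome 18 at 57439878 to 57442652 and counted 18, 3, 14 and 24 in calves and 76, 66, 62 and 146 in steers. The groups did not overlap, and NKG7 rose from 0.317 ± 0.197 to 1.86 ± 0.574 CPM, a log2 change of 2.56 ± 0.62 (edgeR adjusted p = 0.0203). The call ended without calf 3 (log2 change 2.53, adjusted p 0.0533). The NKG7 neighbour LIM2, picked after its values were seen, lies 4179 bases away on the same strand. LIM2 counted 14, 11, 12 and 8 in calves and 98, 10, 42 and 91 in steers. The neighbour on the other side, CLDND2, averaged 0.357 CPM in calves and 0.658 in steers. The part of neighbouring transcription in the NKG7 counts was not tested. Per kilobase of counted span, introns included, the mean steer level was 0.671 CPM for NKG7, 0.0789 for GZMB and 0.0227 for PRF1.

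**Figure D3:**
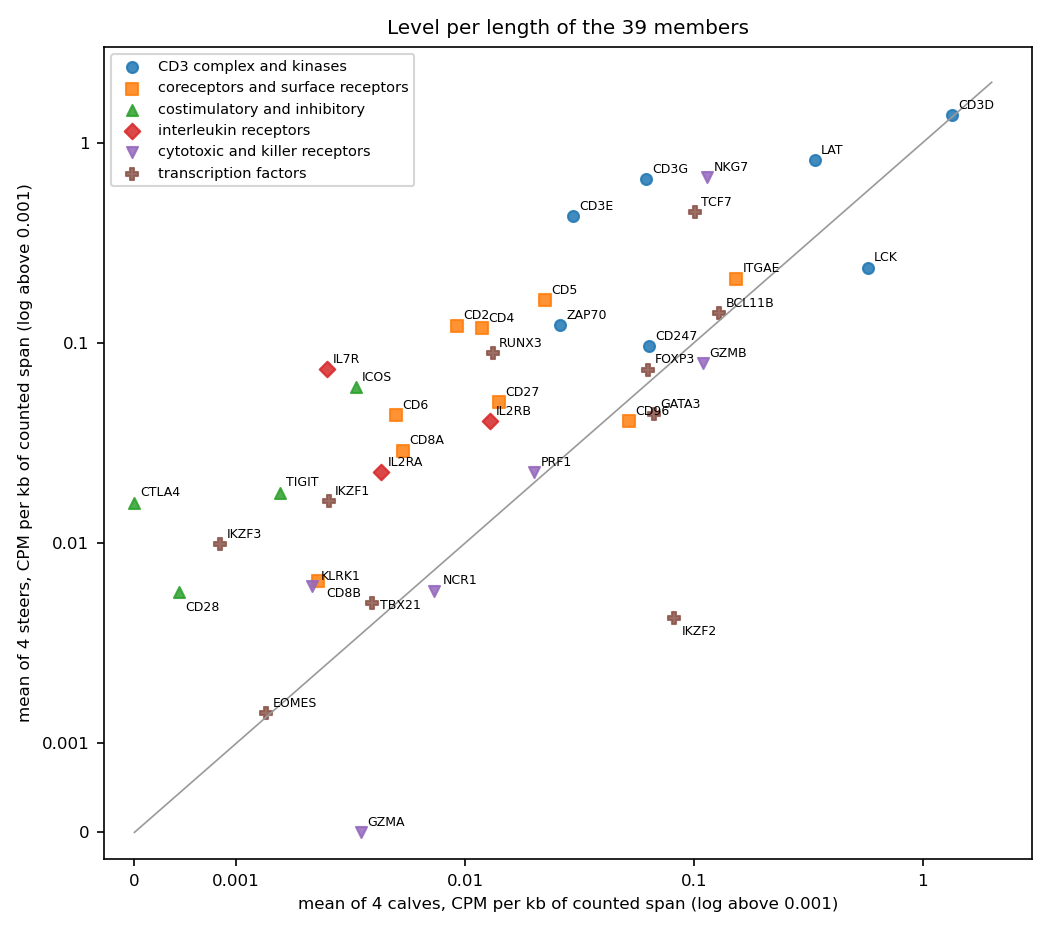
Mean level per kilobase of counted span of each of the 39 genes, calves (n = 4) on the horizontal and steers (n = 4) on the vertical axis, both logarithmic above 0.001 CPM per kilobase, with the line of equal levels and a symbol for each group of genes. CD3D lies on the line at 1.34 and 1.37, CD3E and NKG7 lie above it, and LCK and IKZF2 lie below it. Spans include introns, so places along the line also depend on intron length.

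Lymphoid transcription factors were split. Of 10 genes, 4 rose (TCF7, IKZF1, IKZF3, RUNX3), 1 fell (IKZF2), 3 were not called (BCL11B, GATA3, FOXP3) and 2 were too low to test (TBX21, EOMES). IKZF2, or Helios, is an Ikaros family factor found in regulatory T cells and in some cells outside the immune system. It lies on chromosome 2 at 101004607 to 101190555. Its counts were 768, 761, 879 and 551 in calves and 26, 22, 72 and 30 in steers, with a wide gap between the groups. IKZF2 averaged 15.2 ± 3.55 CPM in calves and 0.782 ± 0.376 in steers, for a log2 change of -4.27 ± 0.38 (edgeR adjusted p = 0.00023), and was called in all 20 alternatives. The unnamed locus LOC112443034, 2954 bases from it on the same strand, counted 42, 30, 20 and 44 in calves and 0 in every steer.

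The other Ikaros factors moved the opposite way. IKZF1, or Ikaros, is a regulator of all lymphoid lineages on chromosome 4 at 5502414 to 5600496, and 20.8% of its span is shared with other genes, where reads were dropped. It counted 14, 10, 8 and 16 in calves and 70, 32, 80 and 128 in steers, without overlap. IKZF1 rose from 0.249 ± 0.0939 to 1.59 ± 0.563 CPM, a log2 change of 2.67 ± 0.48 (edgeR adjusted p = 0.00542). IKZF3, or Aiolos, a factor of maturing B and T cells on chromosome 19 at 40123786 to 40213902, counted 8, 2, 4 and 0 in calves and 66, 14, 32 and 52 in steers. The lowest steer was still above the highest calf in CPM, and IKZF3 rose from 0.0760 ± 0.0813 to 0.887 ± 0.552 CPM, a log2 change of 3.54 ± 0.88 (edgeR adjusted p = 0.023). That call ended without calf 2, calf 3 or steer 1 (log2 changes 3.28, 3.60 and 3.07, adjusted p 0.0621, 0.0591 and 0.0608), and the log2 change was 4.43 without calf 1.

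TCF7 and RUNX3 also rose. TCF7, the factor of naive and memory T cells and of early T cell development (chromosome 7, 45768918 to 45800960), counted 143, 237, 154 and 117 in calves and 595, 296, 785 and 1119 in steers. Steer 2 was the lowest steer and still above every calf. TCF7 rose from 3.25 ± 0.622 to 14.3 ± 4.67 CPM, a log2 change of 2.14 ± 0.31 (edgeR adjusted p = 0.0019). RUNX3, a factor of CD8 T cells, NK cells and dendritic cells (chromosome 2, 127998389 to 128062834), counted 28, 14, 82 and 38 in calves and 262, 100, 183 and 575 in steers. There was no overlap, and RUNX3 rose from 0.852 ± 0.629 to 5.71 ± 3.35 CPM, a log2 change of 2.75 ± 0.64 (edgeR adjusted p = 0.017). The call ended without calf 1 (log2 change 2.65, adjusted p 0.0526), and the log2 change was 3.35 without calf 3.

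The 3 factors that were not called were all well measured. BCL11B, a factor that commits cells to the T lineage and is also used in skin, counted 495, 1052, 580 and 543 in calves and 542, 348, 626 and 1286 in steers. Calf and steer values were intermixed, and the log2 change was 0.13 ± 0.29 (edgeR adjusted p = 0.816). FOXP3, the factor of regulatory T cells (chromosome X, 87289539 to 87309068), counted 46, 87, 38 and 77 in calves and 71, 62, 62 and 62 in steers. The groups overlapped at 1.23 ± 0.368 and 1.44 ± 0.365 CPM, with a log2 change of 0.21 ± 0.38 (edgeR adjusted p = 0.749), and 6.76% of its span is shared with CCDC22 and PPP1R3F. GATA3, a factor of helper 2 T cells that keratinocytes use too, counted 172, 41, 51 and 106 in calves and 56, 44, 69 and 78 in steers, a log2 change of -0.59 ± 0.52 (edgeR adjusted p = 0.483). TBX21 and EOMES, the T-box factors of cytotoxic and NK cells, had at most 6 and 2 counts in any library.

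By the overlap of groups alone, 16 of the 27 tested genes had all steers above all calves and 2 had all steers below. Over all tested genes 10.5% and 12.8% were so placed. The 16 were the genes called higher with IL2RB in the place of CD3G. This contrast too is partly built in by the filter. Among the 16 were all 11 genes that reached 0.212 CPM in all 4 steers but not in all 4 calves.

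**Figure D4:**
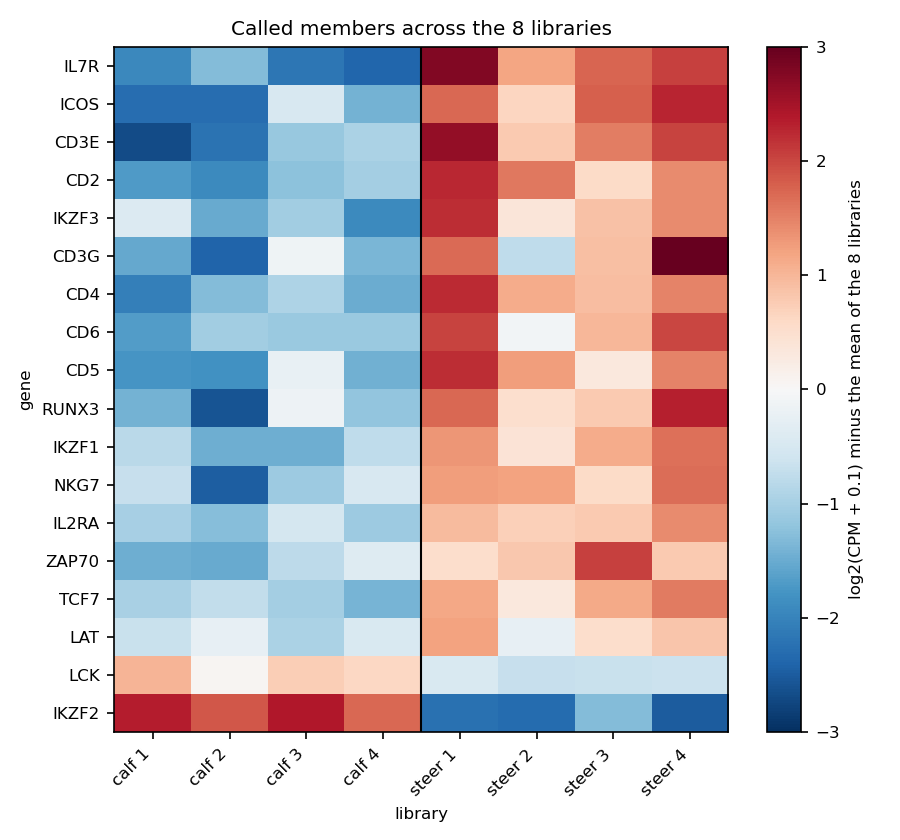
Level of the 18 called genes in each of the 8 libraries, as log2(CPM + 0.1) minus the gene's mean over the libraries, with red above and blue below that mean and a line between calves and steers. Calf columns are blue or near white for the 16 genes that rose and red for LCK and IKZF2, and steer 2 is the palest steer for most of the genes that rose.

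The steers differed among themselves in a shared order. Of the 16 genes that rose, steer 2 was the lowest steer for 11 and steer 3 for 4, while steer 1 was the highest for 8 and steer 4 for 7. Smooth muscle markers ran the other way for steers 2 and 4 only, with a summed level of 111490 CPM in steer 2 and 11488 in steer 4. Steers 1 and 3 were close to each other at 57161 and 54262 CPM, against 6463 to 18724 in calves. Of the 10 smooth muscle markers, 5 rose and 1 fell, against 7.7% and 9.16% over all tested genes. With the smooth muscle level as a covariate, 15 of the 16 rises were still called. In that fit the fold grew over 1.5 times for CD3E (log2 change 4.70), CD3G (5.03), CD5 (3.62), CD6 (3.82), ICOS (5.80) and RUNX3 (3.96). Among the smooth muscle markers, SYNM, DES and CNN1 rose by 3.47, 3.17 and 2.50 on the log2 scale, and ACTA2, whose reads near-identical actin genes can share, fell by 4.09 (edgeR adjusted p 0.00334, 0.0162, 0.0251 and 0.00012). The CNN1 call ended without calf 1, 2, 3 or 4 or steer 2 (2.67, 2.45, 2.29, 2.63 and 2.04), and the covariate was built from these genes.

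Genes further along the T cell receptor pathway went in both directions. Of 34 listed, 25 were tested, 5 rose, 3 fell and 17 were not called, and the median log2 change was 0.69. Over all tested genes 7.7% were called higher and 9.16% lower, so the count that fell was close to that background. UBASH3A, a phosphatase that limits ZAP70 signals in T cells, had no count in any calf and 36, 10, 30 and 66 in steers. With 3 counts per calf library as the floor, it was at least 11.8-fold higher in steers (edgeR adjusted p = 0.00441). PTPRC, which encodes the CD45 phosphatase of all white blood cells, rose by 2.90 ± 0.58 on the log2 scale (edgeR adjusted p = 0.00862; 3.88 with the smooth muscle covariate), from 20, 20, 52 and 16 counts to 131, 55, 298 and 356.

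Among the genes of this pathway that fell were NFATC2 and FYN. The transcription factor NFATC2 fell by 1.55 on the log2 scale (edgeR adjusted p = 0.03), and lost its call when calf 1, calf 3, calf 4 or steer 3 was left out (log2 changes -1.47, -1.53, -1.56 and -1.52) and with the smooth muscle covariate (-1.06). FYN, a kinase related to LCK and used in many tissues, fell by 1.03 (edgeR adjusted p = 0.0223), a call that ended without calf 2 (-0.84) or steer 1 (-0.91), with library size scaling (-1.16) and with the smooth muscle covariate (-0.97).

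Further genes of killer lymphocytes gave 3 rises among 7 tested of 21 listed, against 7.7% called higher over all tested genes. HCST and TYROBP, the adaptors that carry the signals of NK and myeloid receptors, rose by 2.34 ± 0.54 and 2.22 ± 0.52 on the log2 scale (edgeR adjusted p 0.0163 and 0.0172). SRGN, the proteoglycan that packs granules in many blood cells, rose by 1.86 ± 0.31 (edgeR adjusted p = 0.00361). The HCST call ended without calf 1 (2.34, adjusted p 0.052) or calf 3 (2.28, 0.0502) and with the smooth muscle covariate (1.55, 0.15), and the TYROBP call without calf 1 (2.12, 0.054) and with that covariate (1.97, 0.0743). None of these 3 is specific to T and NK cells. Other killer genes of the list were not called or too low to test. CD160, a receptor of NK and killer T cells, averaged 1.15 CPM in calves and 0.907 in steers, and CTSW, a protease of the same cells, 0.967 and 0.550, with log2 changes of -0.35 and -0.82 (edgeR adjusted p 0.716 and 0.227). KLRC1, an NK receptor too low to test, counted 54, 4, 10 and 16 in calves and 0, 0, 10 and 0 in steers, calf 1 being far above the rest. The lowest were near 0 in both groups: GZMK had 0 counts in calves and 0, 0, 0 and 2 in steers, KLRB1 0, 2, 0 and 6 in calves and 0, 0, 0 and 2 in steers, and IFNG 0 in calves and 2, 0, 6 and 0 in steers. These 6 genes were picked after their values were seen, as were those that follow. FCGR3A counted 48, 8, 16 and 6 in calves and 30, 8, 20 and 148 in steers, a log2 change of 1.22 (edgeR adjusted p = 0.408). TNFSF10 had a log2 change of -1.26 (edgeR adjusted p = 0.302). KLRG1, KLRD1 and GZMM, too low to test, totalled 5, 14 and 19 counts in calves and 28, 24 and 28 in steers.

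Of the ligands and cytokines that act on these cells, 14 of 21 were tested, 1 rose and 1 fell, shares near those over all tested genes (7.7% and 9.16%). CD70, the ligand of CD27, had 2 counts in calf 3 and none in the other calves, against 99, 108, 35 and 71 in steers. That is 1 read pair against 158, a ratio of 168 with an exact 95% interval of 29.7 to 6663 for counting error only (edgeR adjusted p = 0.00159). Without calf 3 no calf count remained, and the level was at least 30.3-fold higher in steers, with 3 counts in each calf library as the floor. ICOSLG, the ligand of ICOS, counted 2970, 3482, 3544 and 4618 in calves and 1404, 767, 904 and 2674 in steers. Its log2 change was -1.31 ± 0.33 (edgeR adjusted p = 0.0226), a call that ended without calf 4 (-1.16, adjusted p 0.0617) or steer 2 (-1.17, 0.0523) and with the smooth muscle covariate (-0.83, 0.117). IL7, the ligand of IL7R, and IL15 were not called, with log2 changes of 0.65 and 0.96 (edgeR adjusted p 0.325 and 0.171).

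Markers of other blood cells moved beside the lymphocyte genes in some cases. No B cell marker was called: of 15 B and plasma cell genes 7 were tested, among them XBP1 at a log2 change of -0.63. BLK had all steers above all calves (log2 change 2.92, edgeR adjusted p 0.0615), and MZB1 had all steers below (-2.02, 0.0651). The defining genes MS4A1, CD79A, CD79B and PAX5 had at most 10 counts in any library. The summed level of that list was 109 to 197 CPM in calves and 68.0 to 164 in steers. Most of it was XBP1, at 131 and 84.5 CPM on average, and DERL3, at 12.3 and 14.6, so the sum is no measure of B cells. Of 12 tested macrophage, dendritic and Langerhans markers, 4 rose and 1 fell, against 7.7% and 9.16% over all tested genes. CD207, the langerin of Langerhans cells, counted 10, 4, 24 and 24 in calves and 431, 312, 412 and 1040 in steers, a log2 change of 5.12 ± 0.61 (edgeR adjusted p = 0.000758). ITGAX, an integrin chain of dendritic cells and macrophages, rose by 2.84 ± 0.55 (edgeR adjusted p = 0.00796). With the smooth muscle covariate the log2 change was 5.90 for CD207 and 3.71 for ITGAX. FCER1A rose by 2.50 (edgeR adjusted p = 0.0321) and the monocyte receptor CD14 fell by 1.95 (0.0256). The FCER1A call was lost without calf 1 or 4 or steer 1 or 4 (2.60, 2.44, 2.45 and 2.14), with 3.31 under the covariate, and the CD14 call without calf 1 or 3 or steer 1 or 3 (-1.85, -1.72, -1.93 and -1.79) and with the covariate (-1.11), the CD14 value being -2.54 without steer 4. In all, the list summed to 60.5 to 110 CPM in calves and 40.1 to 121 in steers, with CD14 at 59.3 and 15.3 CPM on average. IKZF1, RUNX3, PTPRC, TYROBP and CD4 can also be expressed by such myeloid cells, whose part in these rises was not tested.

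No neutrophil, mast, endothelial or red cell marker was called higher in steers, where 7.7% of all tested genes were called higher and 9.16% lower. Of 8 tested neutrophil and mast cell markers, 4 were called lower (CXCR2, S100A8, S100A9 and MPO). S100A8 had overlapping groups, an edgeR adjusted p of 0.0463 and no check in the alternative analyses. The mast cell markers KIT, HDC and TPSB2 were not called, with log2 changes of 1.85, 2.39 and -2.03 (edgeR adjusted p 0.0664, 0.104 and 0.086). The list summed to 2999 to 25157 CPM in calves and 2374 to 7912 in steers. Most of that was S100A12, S100A9 and S100A8, at 10181, 2886 and 1918 CPM on average in calves and 4080, 66.8 and 306 in steers. MPO averaged 7.92 CPM in calves and 0.248 in steers, and ELANE had at most 12 counts in any library. Which cells carried the S100 genes was not tested, so the sum is no measure of neutrophils. Endothelial markers fell for 3 of 11, with none higher, and summed to 296 to 605 CPM in calves and 212 to 290 in steers. Red cell markers were called in neither direction among 4 tested, at 8.71 to 16.7 CPM in calves and 4.05 to 10.3 in steers. Most of that was HBQ1, at 9.04 and 5.35 CPM on average. HBB counted 168, 58, 16 and 30 in calves and 0, 14, 0 and 0 in steers. Its log2 change was -4.01, against -2.06 for HBG and 0.99 for AHSP (edgeR adjusted p 0.0808, 0.179 and 0.242). The part of these cells in the lymphocyte results was not tested.

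**Figure D5:**
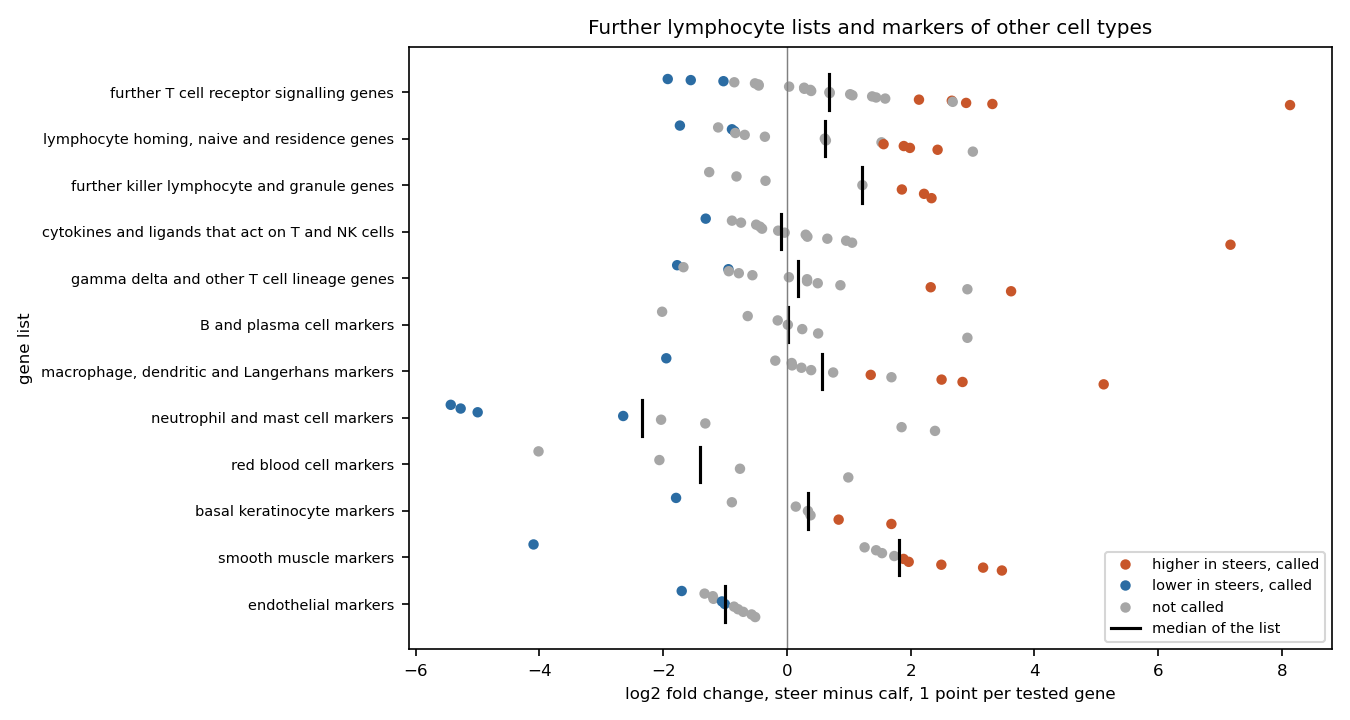
Log2 fold change, steer minus calf, of every tested gene in 12 further lists, with red for called higher, blue for called lower, grey for not called and a black bar at the list median. The point at the far right of the T cell receptor list is UBASH3A, whose fitted value rests on no count in calves, and the median bars run from -2.34 for neutrophil and mast cell markers to 1.81 for smooth muscle markers.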

How the data were processed

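RNA from rumen of 4 calves and 4 steers was sequenced from both ends. Per the submitters' processing notes, Trimmomatic 0.39, STAR 2.7.11a, featureCounts 2.0.2 and DESeq2 1.42.0 were used. The values the authors deposited are raw counts, 1 whole number per gene and library. Per the file headers, featureCounts 2.0.2 summed reads over full transcripts of each gene name, introns included, with both mates counted and no strand set. Second strands were made with dUTP, per the labels' protocols, so strand could have been used, and without it a gene and its antisense partner cannot be told apart. Reads in more than 1 gene were dropped: 6 of the 39 genes have a partly shared span and 0 a wholly shared one. The sources used here name no genome build. Columns are headed by the letters c and s with a number, and were read as the calf or steer of that number. Positions are the file's own, 1-based, and a RefSeq table of ARS-UCD2.0, which matched all 39 genes, gave chromosome numbers only.

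Counts were tested in edgeR 4.0.16 (R 4.3.3) with filterByExpr by group, TMM scaling, a robust quasi-likelihood fit and the F test, steer minus calf, with Benjamini-Hochberg adjustment over 16326 genes. SE was taken as the size of the log2 change over the root of F. Animals are the replicates. No library repeated another of its group (chi-square over degrees of freedom at least 113). The code was tested on simulated data. Levels per kilobase divide CPM by the counted span. Alternatives were other scalings, filters and tests (DESeq2 1.42.0, limma 3.58.1), a smooth muscle covariate, a replicate block, a fit without the 50 top genes by abundance, fits without each library in turn, and, chosen after seeing the data, read pairs (counts halved and rounded up). The smooth muscle covariate is the mean log2 CPM of the smooth muscle markers.

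The 39 genes and all lists were chosen with earlier results of these data known. By rule, all 39 are reported, in full where called, and for CD3 chains, CD4, CD8, cytotoxic genes, FOXP3 and the most abundant tested gene of each group. Of each further list, up to 3 called genes per direction with the largest log2 change are named, or the most abundant tested gene where none was called. Some genes that this rule takes are not reported here.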

Additional observations from a re-analysis of the deposited data

Results flagged for a closer look

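Within each group of 4 animals, each of the 27 tested genes was searched for a library set far apart from the other 3, by the gap to its nearest neighbour over the whole range of the group. Of 54 such checks 6 were marked, and chance marks about 1 in 20 groups. ZAP70 was high in steer 3, at 8.978 CPM against 3.05 to 3.73 in the other steers. CD5 was high in calf 3, at 1.01 CPM against 0.268 to 0.377, and CD6 was low in calf 1, at 0.1398 CPM against 0.251 to 0.268. IL2RB was high in steer 4, at 1.122 CPM against 0.557 to 0.6. BCL11B was high in calf 2, at 17.6 CPM against 11.4 to 12.2. IKZF2 was high in steer 3, at 1.341 CPM against 0.526 to 0.65, and still below every calf.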

How the results depend on the processing

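The 2 genes that fell, LCK and IKZF2, were called lower in each of the 20 alternatives, and no called gene named here changed direction in any. The count of T and NK genes called higher, 16, was 10 under the stricter filter (1 CPM in 4 libraries), where CD2, CD6, ICOS, IKZF1, IKZF3 and IL2RA were not tested, and 14 to 17 with 1 library left out. Over all genes, 1257 were higher and 1495 lower. The higher count was 835 with library size scaling, 1956 in DESeq2, 785 with the replicate block and 705 (without calf 1) to 1473 (without steer 4) with 1 library left out. The lower count was 2254 in DESeq2. Library size scaling shifted the median gene by -0.11 on the log2 scale and left 34.9% of calls higher against 45.7%, and 15 of the 16 rises were still called. The replicate block paired calves and steers by number, although the animals differ and same-numbered libraries did not deviate together (r of 0.199, 0.0826, -0.0953 and -0.266). Of the 4 calves, only calf 1 correlated best with its own number. With the block, 15 of the 39 genes rose and 2 fell, LAT being lost. For the 12 genes too low to test the counts were few, from at most 2 in any library for EOMES to at most 22 for CD8A. DESeq2 also called CTLA4 and TIGIT, and read pairs left IKZF3 untested.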

Other observations

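Homing genes of lymphocytes gave 4 rises and 3 falls among 15 tested of 24 listed, with a median log2 change of 0.61. Over all tested genes, 7.7% were called higher and 9.16% lower. Among the rises was ITGA1, picked after its values were seen, at 44.8 CPM in calves and 132 in steers (edgeR adjusted p = 0.0273). It was highest in steers 2 and 3 (179 and 208 CPM, against 68.0 and 74.1), as was the smooth muscle marker SYNM. Which cells carried ITGA1 was not tested. ITGB2, the beta 2 integrin chain of all white blood cells, counted 42, 42, 44 and 44 in calves and 100, 118, 196 and 260 in steers, a log2 change of 1.99 ± 0.33 (edgeR adjusted p = 0.00361). ITGAL, which pairs with ITGB2 to form the LFA-1 integrin, went the other way, from 179, 293, 254 and 367 counts to 60, 27, 139 and 102, a log2 change of -1.73 ± 0.40 (edgeR adjusted p = 0.0175). The ITGAL call ended without calf 4 (-1.52, adjusted p 0.0528) and with the smooth muscle covariate (-1.43, 0.122). CCR7, the lymph node homing receptor, and CCR6, a receptor of mucosal T and dendritic cells, rose by 2.44 ± 0.72 and 1.89 ± 0.50 on the log2 scale (edgeR adjusted p 0.0456 and 0.0302). The CCR7 call did not survive leaving out calf 1, 2 or 3 or steer 1, 3 or 4 (2.15, 2.08, 2.75, 2.26, 2.49 and 2.36) and with library size scaling (2.38), and the log2 change was 3.41 with the covariate. The CCR6 call did not survive leaving out calf 1, 3 or 4 or steer 1 or 4 (1.81, 1.69, 1.99, 1.72 and 1.62) and with library size scaling (1.74). KLF2, a factor of resting lymphocytes and endothelium, fell by 0.89 (edgeR adjusted p = 0.0207), and the call ended without calf 1, calf 4 or steer 1 (-0.79, -0.78 and -0.85). ITGB7, the partner of ITGAE, had overlapping groups and a log2 change of -0.85 (edgeR adjusted p = 0.0497), and its call ended without any 1 library other than steer 1 (-0.70 to -0.96), and with RLE scaling (-0.84), without the filter (-0.83), without the 50 most abundant genes (-0.81) and with the covariate (-0.91). CCL5, a chemokine made by T and NK cells, counted 56, 0, 22 and 30 in calves and 288, 84, 240 and 290 in steers, and just missed the threshold at a log2 change of 3.01 ± 0.92 (edgeR adjusted p = 0.0506). It was picked after its values were seen.

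Genes of gamma delta and other T cell lineages gave 2 rises and 2 falls among 14 tested of 20 listed, with a median log2 change of 0.18. Those are few genes to set beside the 7.7% called higher and 9.16% called lower over all tested genes. CD163L1, a scavenger receptor of the family that holds the WC1 receptors of bovine gamma delta T cells, counted 2, 1, 5 and 0 in calves and 12, 26, 20 and 43 in steers. Its log2 change was 3.62 ± 0.83 (edgeR adjusted p = 0.0165), a call that ended without calf 1 (3.69, adjusted p 0.051), and the change was 4.56 without calf 3. WC1 had no count in calves and 0, 0, 2 and 5 in steers. TOX, a factor of T cell development and exhaustion, rose by 2.32 ± 0.51 (edgeR adjusted p = 0.0138), highest in steers 2 and 3, the reverse of the order seen for most of the T cell genes that rose, and its call ended with the smooth muscle covariate (1.11, adjusted p 0.12). SOX13 fell by 0.95 (edgeR adjusted p = 0.0358), and the call was lost on leaving out calf 1, 3 or 4 or steer 2 or 3 (-0.83, -0.91, -0.97, -0.81 and -0.81) and with that covariate (-0.63).

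Of 8 tested neutrophil and mast cell markers, 4 fell and none was called higher. Over all tested genes, 7.7% were called higher and 9.16% lower. CXCR2, the chemokine receptor of neutrophils, counted 586, 1220, 696 and 568 in calves and 24, 10, 14 and 24 in steers, and S100A9 changed by -5.43 ± 0.89 on the log2 scale (edgeR adjusted p = 0.00353), or -6.04 without steer 1 and -4.60 with the smooth muscle covariate. MPO fell by 5.0 on that scale (edgeR adjusted p = 0.0261), and its call ended without calf 1, calf 3, steer 2 or steer 3 (-4.56, -4.42, -4.67 and -5.20), in limma-voom (-5.23) and when smooth muscle was a covariate (-4.95), the change being -5.84 without steer 1. Red cell markers were called in neither direction among 4 tested. HBQ1, the most abundant of them, had a log2 change of -0.76 (edgeR adjusted p = 0.138). Endothelial markers fell for 3 of 11 and rose for none, namely TIE1, PECAM1 and ROBO4 at -1.70, -1.05 and -1.0 (edgeR adjusted p 0.00515, 0.0288 and 0.0267). The PECAM1 call was lost on leaving out any 1 library other than calf 3 or steer 4 (-0.78 to -1.12), and with library size scaling and the smooth muscle covariate (-1.18 and -1.08), and the ROBO4 call without calf 2 or 4 or steer 1 (-0.93, -0.83 and -0.91). Basal keratinocyte markers gave 2 rises and 1 fall among 7, with KRT14 at 1.69, DST at 0.84 and COL17A1 at -1.79 (edgeR adjusted p 0.0216, 0.0154 and 0.00227). The KRT14 call was lost without calf 1, 2 or 3 (1.61, 1.56 and 1.49) and with the covariate (1.45), and the DST call without calf 1, 3 or 4 (0.86, 0.81 and 0.77) and with library size scaling and the covariate (0.71 and 0.70).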
